A study of Mus musculus with 24 samples.

Results

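The kidneys of mice kept under γ-rays at the highest dose rate of the study were compared with those of mice kept at the lowest. The 3 arrays labelled as high, at 13 μGy/min and 8000 mGy in all, were set against the 3 labelled as low, at 0.032 μGy/min and 21 mGy in all. These are 6 of the 12 kidney arrays and of the 24 arrays of the series. The source was 137Cs, exposure lasted 485 days at 22 h per day, and 12 mice were used, 3 in each condition. The unirradiated controls and the mid group (0.65 μGy/min, 420 mGy), with 3 kidney arrays each, served to estimate the spread and to describe where other mice lay. Dose rate and total dose rise together over the same time, so they cannot be told apart. The labels state neither strain, age nor sex.

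Kidney tubules spend much of their energy on moving salt and solutes, and the cells of the proximal tubule are packed with mitochondria. There, complexes I to IV of the respiratory chain pass electrons from nutrients to oxygen and pump protons, and ATP synthase uses the proton gradient. Most subunits of these complexes are encoded in the nucleus and made on cytosolic ribosomes, while 13 proteins of the chain are encoded in mitochondrial DNA. Ionizing radiation damages DNA, which activates p53 and, through it, genes of cell cycle arrest and repair.

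Transcripts were hybridized to Mouse-6 bead arrays (Illumina), and levels are given as log2 normalized intensities. The design text calls the 3 arrays of a group biological replicates. Detected probes numbered 9545 to 9726 on the low arrays and 9622 to 10230 on the high arrays. Arrays correlated at r = 0.988 to 0.994 within the low group, at 0.983 to 0.994 within the high group, and at 0.980 to 0.992 between the groups, with low replicate 2 and high replicate 2 standing slightly apart. A kidney marker of the proximal tubule, the organic anion transporter Slc22a6, lay at 12.91 to 13.45 on all 6 arrays, while no skeletal muscle or adrenal cortex marker was among the tested probes with a symbol. The number of arrays limits the precision of every value.

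Control probes placed on the arrays also separated the groups. The signal of mismatched control probes was 5.10%, 5.74% and 6.09% of that of the matched probes on low replicates 2, 3 and 4, and 8.57%, 7.37% and 8.93% on high replicates 1, 2 and 3. The difference of 2.64 percentage points had a two-sided exact permutation p = 0.1, the smallest that 20 splits of 6 arrays allow. High-stringency control signals lay at 61447.8 to 63198 on the low arrays and at 54704.7 to 55766.5 on the high arrays, without overlap. Negative control signals lay at 183 to 198 against 149.3 to 161.2, again without overlap. Labeling control signals (178.1 to 191.4 against 143.7 to 158.7) and housekeeping control signals (11595.2 to 12022.1 against 8751.2 to 10671.4) did not overlap either. For the housekeeping signal, the control arrays (9635.3 to 12952.1) and mid arrays (9807.2 to 12963.1) spread over both ranges. The control arrays (5.67% to 6.82% mismatch) lay with the low ones and the mid arrays (8.54% to 8.90%) with the high ones. The part of these hybridization differences in the results below was not tested beyond the fit with the mismatch ratio as a covariate. Because the ratio itself separates the high from the low arrays, that fit can hardly tell its part from that of the dose rate.

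**Figure D1:**
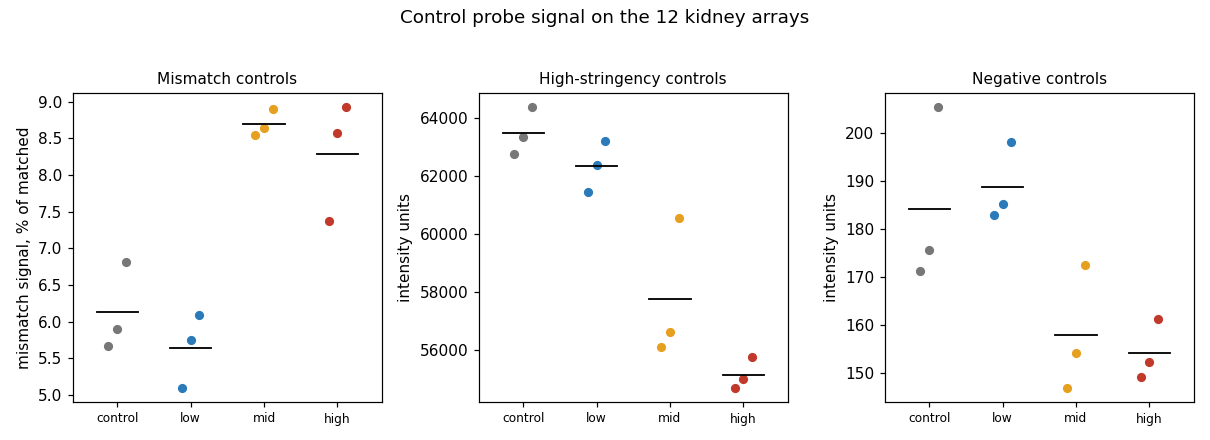
Signal of Illumina control probes on the 12 kidney arrays, with 1 point per array and a bar for the mean of each group of 3. The mismatch signal, in percent of the matched signal, and the 2 intensity measures separate the 3 high from the 3 low arrays, and the mid arrays lie with the high ones for the mismatch signal.

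Among the genes that were higher at the high dose rate were subunits of the respiratory chain, and among those that were lower were regulators of chromatin and RNA processing. A probe was called when its Benjamini-Hochberg adjusted p in the limma fit over all 10903 tested probes was under 0.05. This held for 81 probes (0.743%), of which 62 were higher (0.569%) and 19 lower (0.174%) at high than at low dose rate. Differences among them ranged in size from 0.29 to 1.10 on the log2 scale, with a median of 0.57, and 6 were at least 2-fold. At unadjusted p under 0.05 there were 1302 probes (11.9%), 786 higher and 516 lower. All 81 called probes had high and low arrays that did not overlap, as did 17.4% of all probes. A gene symbol could be given to 31 of them, 20 higher and 11 lower, and the other 50 are counted without a name.

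The count of 81 depended on single arrays and on the handling of background. Only 1 probe passed without low replicate 2, without low replicate 4 or without high replicate 3, and 214 passed without control replicate 2. With the background spread estimated from central detection scores, 15 probes passed, and with the mismatch ratio of each array as a covariate none (0) passed. All 81 kept their sign in every one of these fits except for 1 in the covariate fit, where 35 had an unadjusted p under 0.05. The median size of the 81 differences was 0.44 in the covariate fit and 0.57 in the main fit. The mismatch ratio separates the high from the low arrays, so the covariate fit has little power.

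Among the nuclear-encoded subunits, Ndufb9, an accessory subunit of complex I, had the smallest adjusted p. It lay at 7.44, 7.72 and 7.72 on the low arrays and at 8.77, 8.54 and 8.61 on the high arrays, a difference of +1.01 ± 0.09 (limma SE, n = 3 per group, adjusted p = 0.00389). No low array came near a high one, and Ndufb9 was the probe that still passed without low replicate 2, low replicate 4 or high replicate 3. Ndufa6, another accessory subunit of complex I, lay at 7.91, 8.20 and 8.20 at low and at 8.99, 9.04 and 9.37 at high dose rate. Its difference was +1.03 ± 0.16 (adjusted p = 0.0276 in the same limma fit). Ndufb5, a subunit of the complex I membrane arm, lay at 7.85, 7.94 and 7.98 against 8.62, 8.89 and 8.84, a difference of +0.86 ± 0.15. All 3 subunits thus had high arrays clear of the low ones.

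In complex III, Uqcrb, a small nuclear-encoded subunit, lay at 8.43, 8.67 and 8.97 at low and 9.81, 9.36 and 9.72 at high dose rate, a difference of +0.94 ± 0.15 (limma adjusted p = 0.0295). The low arrays of Uqcrb spread over more than those of Ndufb9, yet the highest low array stayed under the lowest high array. With the mismatch ratio as a covariate the Uqcrb difference shrank to +0.074 (limma adjusted p = 0.985), and those of Ndufb9, Ndufa6 and Ndufb5 to +0.63, +0.42 and +0.44, none passing. These 4 were the only members of the chain's nuclear-encoded lists that passed: 3 of 18 measured members of complex I, 1 of 17 of complexes II to IV and 0 of 10 of ATP synthase, where 1 had an unadjusted p under 0.05. Among all probes, 0.569% were called higher, and 11.9% had an unadjusted p under 0.05 in the limma fit. Of the list members that did not pass, Cox6c, a subunit of complex IV, differed by +0.56 ± 0.14 (limma adjusted p = 0.107) and Ndufs4, a complex I subunit, by +0.42 ± 0.12 (adjusted p = 0.173). The lists as a whole were balanced, with 9 of 18, 8 of 17 and 5 of 10 members higher and medians of 0.00, −0.01 and +0.01, against 47.4% higher and a median of −0.01 over all probes.

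**Figure D2:**
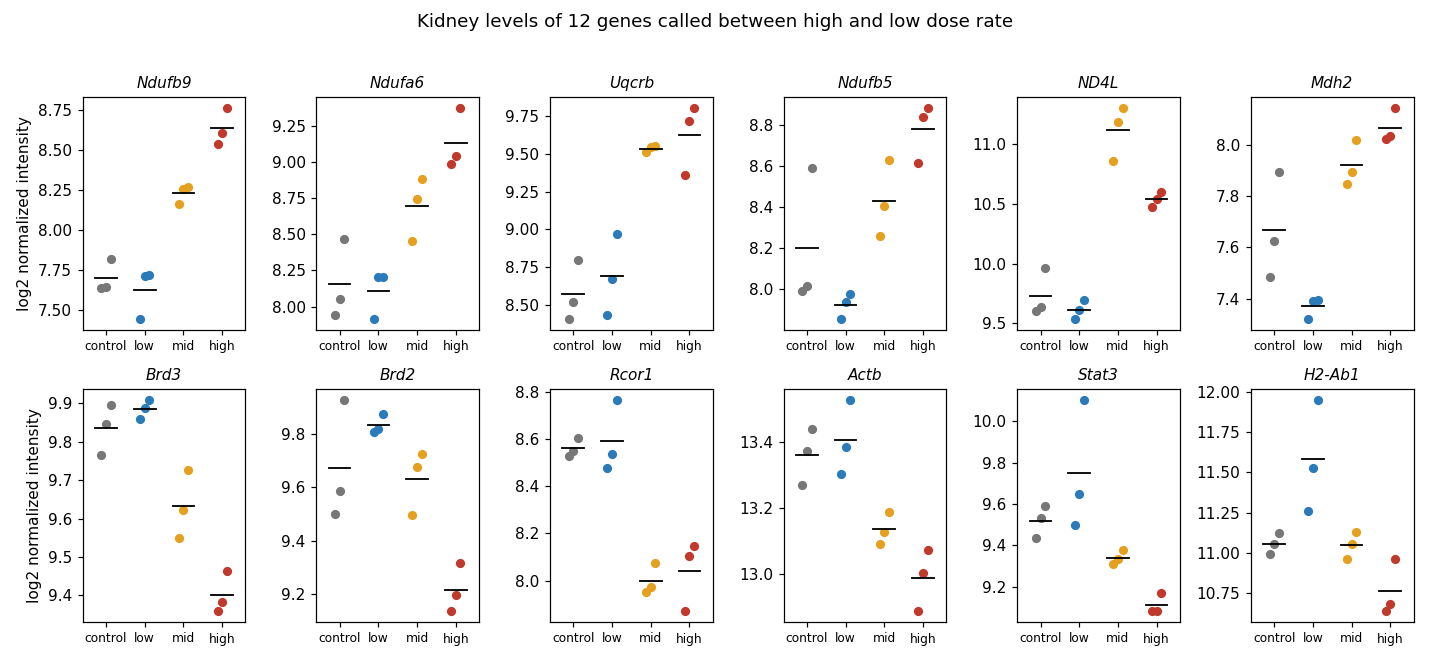
Levels of 12 called genes on the 12 kidney arrays, in log2 normalized intensity, with 1 point per array and a bar for the mean of each group of 3. In the upper row all 3 high arrays lie above the 3 low arrays, and in the lower row below them; the mid arrays of most genes lie between or beside the high ones, while those of H2-Ab1 and Brd2 lie near control and those of ND4L above high.

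Transcripts of mitochondrial DNA had mostly higher means at the high dose rate. Of the 13 measured, 11 were higher and 1 passed, and the median difference was +0.21. Among all probes, 47.4% were higher and 0.569% were called higher. For 4 of the 13 transcripts all high arrays lay above all low arrays, against 9.43% of all probes. ND4L, which encodes a small membrane subunit of complex I, lay at 9.61, 9.53 and 9.69 on the low arrays and at 10.48, 10.54 and 10.60 on the high arrays, a difference of +0.93 ± 0.12 (limma adjusted p = 0.0167). A further probe of ND4L gave +0.17 ± 0.16 with overlapping groups, so the probes of this gene disagree in size. ND3 differed by +0.69 ± 0.20, COX2 by +0.47 ± 0.12 and ATP8 by +0.39 ± 0.11, with adjusted p-values of 0.171, 0.127 and 0.172 in the limma fit, and of these ND3 had groups that did not overlap. Averaged over the 13 transcripts, the high arrays lay +0.19, +0.36 and +0.28 above the mean of the low arrays, and the mid arrays lay further, at +0.38 to +0.40. Without high replicate 2 the median was +0.13.

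Whether a member of these abundant families was higher at the high dose rate varied with the brightness of its probe, which depends on the probe as well as on the transcript. The nuclear-encoded respiratory chain and cytosolic ribosomal protein lists were pooled, with all their tested probes, and sorted by their mean on the control arrays, a group outside the comparison. Of 23 probes under a control level of 10, 20 were higher at high dose rate, with a median difference of +0.24. Of 75 probes above 12, 23 were higher, with a median of −0.03. Over all tested probes the shares were 47.4% and 46.0% in the same bins, with medians of −0.01 and −0.01. The 4 called subunits all had dim probes, but so did 52 of the 62 probes called higher. Of all 10903 tested probes, 9029 had a control level under 10. The bins were chosen after the values were seen, so no test was made. Dim probes could also pass the detection filter through their high arrays. A probe of Atp5md was detected on 3 high and 0 low arrays, and that of Cox7b on 3 high arrays and 1 low array. Both count among the higher probes of the dim bin, and the part of the filter was not tested.

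Ribosomal proteins showed the pattern within a single family. None (0) of 64 measured members passed in the limma fit, where 9 higher and 3 lower had an unadjusted p under 0.05, 26 were higher and 38 lower, and the median was −0.03. Of all probes in that fit, 0.743% were called, 11.9% had an unadjusted p under 0.05 and 47.4% were higher. Rpl6, of the large ribosomal subunit, lay at 7.77, 8.51 and 8.34 on the low arrays and at 9.23, 8.89 and 9.58 on the high arrays, a difference of +1.03 ± 0.20 (limma adjusted p = 0.0507). Rpl21 differed by +0.86 ± 0.19 and Rps3a1 by +0.71 ± 0.15, both without overlap, with adjusted p-values of 0.0828 and 0.0770. For Rps9, the dimmer probe differed by +0.80 ± 0.20 and the brighter probe by −0.34 ± 0.14, with adjusted p-values of 0.119 and 0.364 in the limma fit. For Rps3 the dimmer probe gave +0.41 ± 0.15 and the brighter −0.15 ± 0.10. Among the 9 genes of these lists with a pair of probes, however, the dimmer one had the larger difference in 3.

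**Figure D3:**
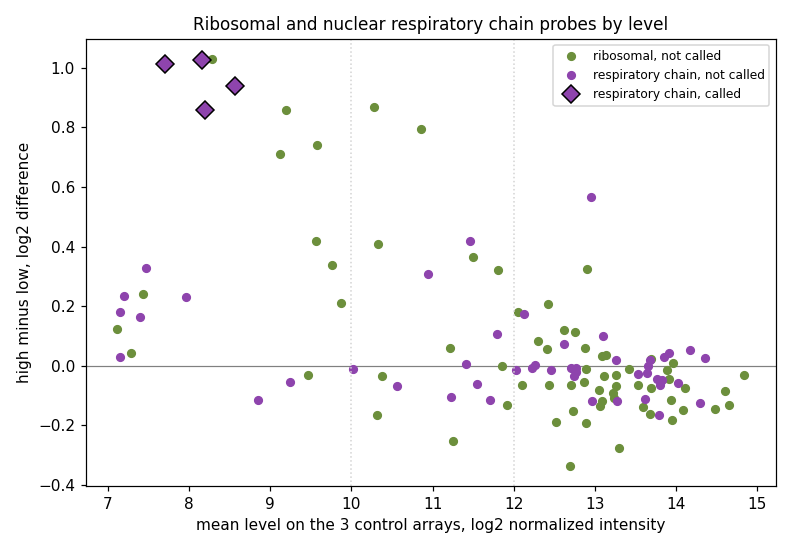
High minus low log2 difference against the mean level on the 3 control arrays for the tested probes of cytosolic ribosomal proteins and of nuclear-encoded respiratory chain and ATP synthase subunits. The 4 called subunits (diamonds) lie at control levels under 10, and most probes above 12 lie near 0, with Cox6c at +0.56 an exception; dotted lines mark 10 and 12.

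Other mitochondrial and metabolic genes were also among the 20 higher genes. Mdh2, the mitochondrial malate dehydrogenase of the tricarboxylic acid cycle, lay at 7.32, 7.39 and 7.40 on the low arrays and 8.02, 8.03 and 8.14 on the high arrays, a difference of +0.70 ± 0.09 (limma adjusted p = 0.0167). Near background, the value depends on the noise estimate: it was +1.23 with the background spread from central detection scores. With the main noise estimate and the mismatch ratio as a covariate, the Mdh2 difference was +0.34. Mdh2 was the 1 called member of 8 measured for the tricarboxylic acid cycle, of which 7 were higher, with a median of +0.10. Among all probes, 47.4% were higher and 0.569% were called higher. Etfa, a subunit of the flavoprotein that hands electrons from fatty acid oxidation to the chain, differed by +0.59 ± 0.09, but its further probe, which is brighter, gave −0.03 ± 0.13. Acadsb, an acyl-CoA dehydrogenase of branched-chain amino acid breakdown, differed by +0.93 ± 0.18 and Isca1, which takes part in building iron-sulfur clusters in mitochondria, by +0.56 ± 0.10 (+0.86 with central scores). Marchf5, a ubiquitin ligase of the mitochondrial outer membrane, differed by +0.62 ± 0.11. The Acadsb difference turned to −0.079 in the fit with the mismatch ratio.

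The remaining called genes with a symbol and higher levels have varied roles. Enpp2, the secreted enzyme autotaxin that makes lysophosphatidic acid, lay at 7.22 to 7.35 at low and at 7.74 to 7.89 at high dose rate, a difference of +0.53 ± 0.07 (limma adjusted p = 0.0167). Its level was close to background, where the neqc correction pulls differences towards 0: with the background spread taken from central detection scores, the difference was +1.21. Tmed10, a cargo receptor between endoplasmic reticulum and Golgi, differed by +0.98 ± 0.18, Vps29, a subunit of the retromer, by +0.75 ± 0.13, and Hsd17b12, a reductase of fatty acid elongation, by +0.73 ± 0.13. Rnf11, a RING-type ubiquitin ligase, differed by +0.84 ± 0.13 and Dazap2 by +0.66 ± 0.10. Pabpc1, the cytoplasmic poly(A)-binding protein, differed by +0.65 ± 0.09 on 1 probe and by +0.02 ± 0.05 on another. The other Pabpc1 probe lay close to background, at 7.25 to 7.31 on the low arrays. Efr3a, which anchors a lipid kinase at the plasma membrane, Cpq, a carboxypeptidase, and Lmo7 differed by +0.38 ± 0.07, +0.38 ± 0.07 and +0.40 ± 0.08. Lmo7 was detected on 1 of 3 low arrays, and its difference was +1.43 with the background spread from central scores.

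Chromatin and transcriptional regulators had lower means at the high dose rate in 17 of 18 measured genes. Of these, 3 passed, none higher, and the median was −0.23, while 0.174% of all probes were called lower. As given below, 5 of the 18 had been put on the list because they changed on these arrays, Brd3 and Rcor1 among them. Brd3, a bromodomain protein that binds acetylated histones, lay at 9.91, 9.89 and 9.86 on the low arrays and at 9.38, 9.46 and 9.36 on the high arrays, a difference of −0.48 ± 0.06 (limma adjusted p = 0.0167). The arrays of each group stood within about 0.1 of each other. Brd2, of the same family, lay at 9.82, 9.87 and 9.81 against 9.31, 9.20 and 9.14, a difference of −0.62 ± 0.10, and its further probe gave −0.30 ± 0.18 with overlapping groups. Rcor1, a scaffold of the CoREST repressor complex, lay at 8.48, 8.54 and 8.77 against 8.15, 8.11 and 7.87, a difference of −0.55 ± 0.09.

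High and low arrays did not overlap for 12 of these 18 genes with high below low, against 7.92% of all probes. Klf3, a zinc-finger repressor, differed by −0.37 ± 0.10 without passing (limma adjusted p = 0.141). Averaged over the list, the high arrays lay at −0.21, −0.27 and −0.24 relative to the low mean, the low arrays at −0.02 to +0.02, the control arrays at −0.02 to +0.06 and the mid arrays at −0.15 to −0.02. The 3 high arrays were thus lower than each of the other arrays. Brd3, Rcor1, Klf3, Zbtb7a and Kmt2e had been put on the list because they changed in an earlier analysis of these arrays, so they are no independent evidence of its direction. Of the 13 members left without these 5, 12 were lower, 1 passed, 7 did not overlap and the median was −0.18. Without the filter on dim probes, which adds members near background, the list's median was −0.069.

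RNA-processing genes were split. Of 30 measured members, 13 were higher and 17 lower, with a median of −0.03, and 3 passed, all lower, against 0.174% of all probes called lower. Rbm39, a splicing factor, lay at 8.07, 8.05 and 8.19 on the low arrays and at 7.75, 7.65 and 7.51 on the high arrays, a difference of −0.47 ± 0.07 (limma adjusted p = 0.0214). Its further probe went the other way, at +0.22 ± 0.07 and without overlap, so the probes of the gene disagree in direction. That probe was dim, at 7.61 to 7.71 on the low arrays. Papola, the nuclear poly(A) polymerase, differed by −0.44 ± 0.08 and Ints6, a subunit of the Integrator complex, by −0.54 ± 0.09. For Ints6 the 3 low arrays, at 8.76 to 9.02, were also above the 3 control arrays, at 8.31 to 8.54. Srsf5, a splicing factor, differed by +0.35 ± 0.08 without passing (adjusted p = 0.0919). Outside this list, Arglu1, a nuclear protein of splicing and transcription, differed by −0.39 ± 0.08 and Nop58, a core protein of box C/D small nucleolar ribonucleoproteins, by −0.55 ± 0.10.

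**Figure D4:**
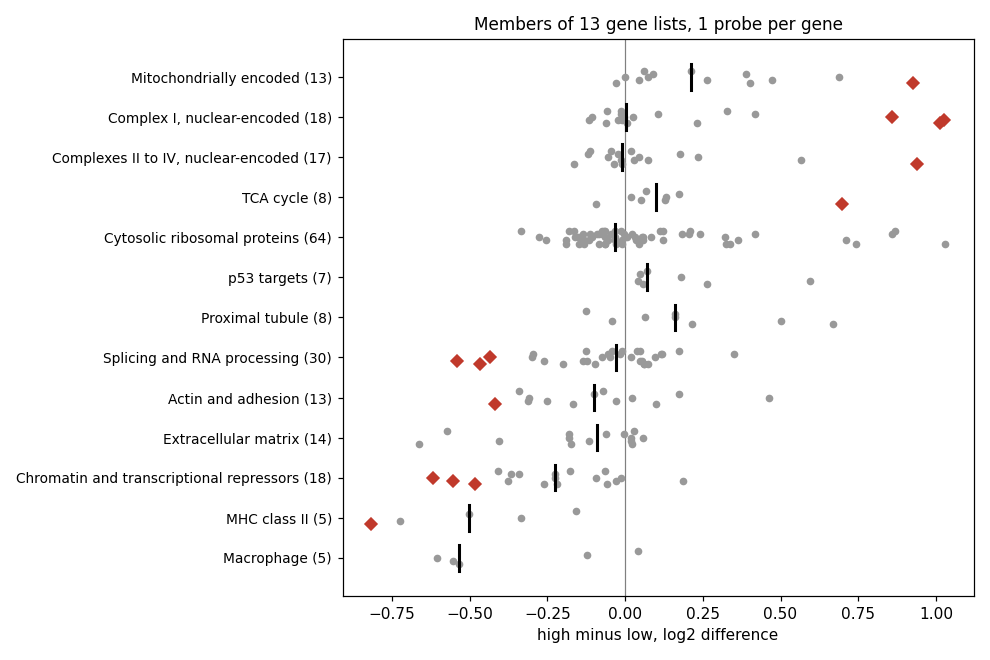
High minus low log2 differences of the members of 13 gene lists, with 1 point per gene, red diamonds for genes with adjusted p under 0.05, black bars for medians and the number of measured genes in brackets. The chromatin list has 17 of 18 genes below 0, while the respiratory chain lists centre on 0 with 4 called genes far to the right. Of the 18 chromatin genes, 5 were picked on these arrays, and without them 12 of 13 lie below 0.

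Actb, which encodes cytoplasmic β-actin and often serves as a reference gene, was lower at high dose rate. It lay at 13.39, 13.53 and 13.30 on the low arrays and at 13.00, 12.89 and 13.07 on the high arrays, a difference of −0.42 ± 0.07 (limma adjusted p = 0.0355). The housekeeping control signal of the high arrays was also lower, as given above, and its part in the Actb difference was not tested. Of 13 actin and adhesion genes 9 were lower, 1 passed and the median was −0.10, while 0.174% of all probes were called lower. Tns1, which links actin to integrins, differed by −0.31 ± 0.07 and Tpm3, a tropomyosin, by +0.46 ± 0.10, neither passing (adjusted p = 0.0869 and 0.0880). Of 14 extracellular matrix genes none (0) passed in the limma fit, and 5 had an unadjusted p under 0.05, all lower. In the same fit 11.9% of all probes, in either direction, had an unadjusted p under 0.05. For 6 of the 14 the groups did not overlap with high below low, against 7.92% of all probes. Decorin (Dcn), a small proteoglycan of connective tissue, lay at 11.16, 10.68 and 10.72 at low and at 10.53, 9.91 and 10.13 at high dose rate, a difference of −0.66 ± 0.17 (adjusted p = 0.119). The values of low replicate 2 and high replicate 2 were the extremes for this gene.

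All 5 measured genes of MHC class II, which presents antigen to T cells, had lower means at the high dose rate and 1 passed, with a median of −0.50. Over all probes, 47.4% had higher means and 0.174% were called lower. H2-Ab1, a chain of the class II molecule, lay at 11.95, 11.53 and 11.26 on the low arrays and at 10.97, 10.68 and 10.64 on the high arrays, a difference of −0.82 ± 0.15 (limma adjusted p = 0.0406). The control arrays lay at 10.99 to 11.12 and the mid arrays at 10.97 to 11.13, close to the high group and below all 3 low arrays. For low minus control, however, none (0) of the probes passed in the limma fit, 909 had an unadjusted p under 0.05, and H2-Ab1 differed by +0.52 ± 0.15 (adjusted p = 0.454). The further probe of H2-Ab1 gave −0.64 ± 0.25 with overlap, and Cd74, the invariant chain, differed by −0.72 ± 0.22 (adjusted p = 0.198). Stat3, a transcription factor of cytokine signalling, lay at 10.10, 9.65 and 9.50 on the low arrays and at 9.08, 9.17 and 9.08 on the high arrays, a difference of −0.64 ± 0.12, while its further probe gave −0.15 ± 0.19.

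Macrophage markers were examined beside these genes. Of 5 measured, 4 had lower means at high dose rate, 1 had a higher mean, none (0) passed or reached an unadjusted p under 0.05 in the limma fit, and the median was −0.53. The shares of all probes in that fit were 0.743% called and 11.9% at unadjusted p under 0.05. Averaged over the list, low replicates 2, 3 and 4 lay at +0.47, −0.10 and −0.37 relative to their mean, the high arrays at −0.59 to −0.15 and the control arrays at −0.62 to −0.52. The markers were thus highest on low replicate 2, which also had the highest H2-Ab1 and Stat3 levels. Without that array the median of the macrophage list was −0.18 and that of MHC class II −0.35, and without high replicate 2 as well they were +0.030 and −0.18. The part of macrophage RNA in the H2-Ab1 and Stat3 differences was not tested, and in whole kidney fewer cells of a type cannot be told apart from less RNA per cell. The lymphocyte and plasma cell list, with 4 measured genes, had a median of −0.53, and its immunoglobulin genes varied widely within groups, Ighm from 9.06 to 12.27 on the low arrays.

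Genes that p53 activates showed no call. All 7 measured were higher at high dose rate, none (0) passed in the limma fit, 2 had an unadjusted p under 0.05, and the median was +0.07. Of all probes in that fit, 47.4% were higher, 0.743% were called and 11.9% had an unadjusted p under 0.05. With 7 genes measured, the absence of a call is thus no result about p53. This median was +0.23 with the background spread from central scores, +0.25 with signals floored at 16, and +0.013 without low replicate 2 and high replicate 2. Zmat3, an RNA-binding protein gene induced by p53, lay at 7.49, 7.46 and 7.35 at low and at 7.52, 7.84 and 7.73 at high dose rate, a difference of +0.26 ± 0.09 (adjusted p = 0.231). Gdf15, a secreted stress cytokine, lay at 7.21, 7.50 and 7.63 against 8.01, 8.51 and 7.59, a difference of +0.59 ± 0.19 (adjusted p = 0.235). Its groups overlapped through high replicate 3, and it was detected on 2 of 3 low arrays. Cyclin G1 (Ccng1) differed by +0.18 ± 0.17. DNA repair genes had 8 of 11 members higher, with a median of +0.03 and none (0) past the threshold in the limma fit, where 2 had an unadjusted p under 0.05.

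Proximal tubule markers had 6 of 8 members higher at high dose rate and a median of +0.16, with none (0) past the threshold and 3 at unadjusted p under 0.05 in the limma fit. The shares of all probes there were 47.4% higher, 0.743% called and 11.9% at unadjusted p under 0.05. Pck1, the gluconeogenic enzyme phosphoenolpyruvate carboxykinase, differed by +0.50 ± 0.16 (limma adjusted p = 0.211). Averaged over the list, low replicate 2 was lowest, at −0.11, and the high arrays lay at +0.18 to +0.24, overlapping the control arrays at +0.11 to +0.21. The lists for endothelium, podocytes, collecting duct and distal tubule held 4, 3, 3 and 3 measured genes. Of these, 4, 2, 3 and 2 had lower means, with medians of −0.08, −0.04, −0.26 and −0.07. None (0) passed or had an unadjusted p under 0.05 in the limma fit, but with so few genes this does not show a lack of change.

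For most called probes, the arrays outside the comparison ordered the same way. The mid minus control difference uses none of the high or low arrays, although all 12 arrays were normalized together and share the estimate of the spread. It had the sign of the high minus low difference for 75 of the 81 called probes (92.6%), against 56.8% of all probes. Its median in that direction was 0.27, and 11 of the 81 were also called there, where 34 of 10903 probes passed (0.312%). Control lay nearer to low for 68 of the 81 (84.0%, against 52.7% of all probes) and mid nearer to high for 69 (85.2%, against 55.4%). The means of 52 (64.2%, against 10.5%) stood in the order low, control, mid, high or its mirror for lower probes. These counts of nearness and order also use the high and low means by which the probes were called. The shares of all probes are thus no like baseline for them, and no conclusion is drawn from the gap. The mismatch control signal has the same direction in mid minus control, as given above, and its part was not tested there.

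The order differed between genes. Ndufb9 rose in steps, at 7.64 to 7.82 on the control arrays and 8.17 to 8.27 on the mid arrays, with a mid minus control difference of +0.53 ± 0.09 (limma adjusted p = 0.0488). ND4L lay higher at mid, at 10.86 to 11.31, than at high dose rate. Rcor1 lay at 7.95 to 8.08 on the mid arrays, level with the high ones. Brd2, Ints6, H2-Ab1 and Arglu1 had mid minus control differences of −0.04, +0.08, −0.01 and −0.01, so for them the mid arrays lay with control.

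**Figure D5:**
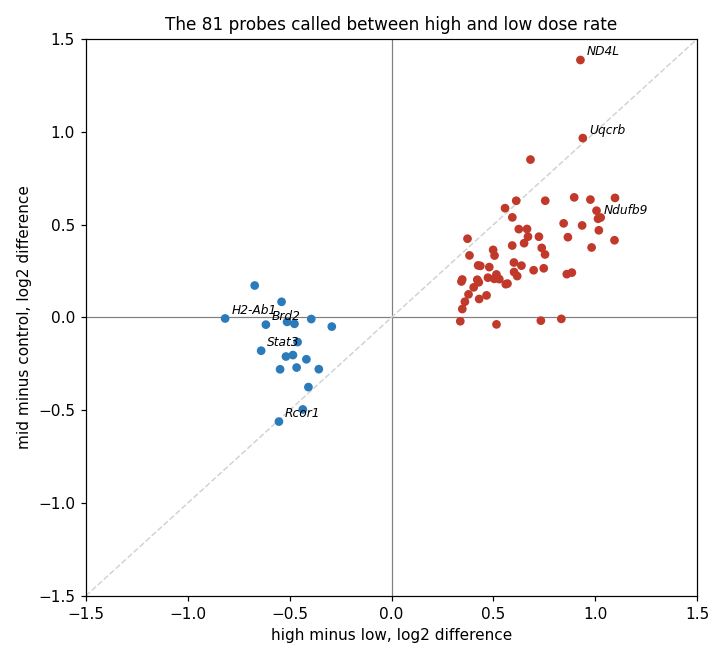
Mid minus control against high minus low log2 differences for the 81 called probes, red if higher and blue if lower at high dose rate, with a dashed line of equal differences. The 2 contrasts share no array, and 75 of the 81 points have the same sign in both; ND4L has the largest mid minus control difference, +1.39.

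The same dose rates were compared in testis. The series' value table was used for both, with signals floored at 16, so these kidney differences are on another scale than those above. None (0) of 21845 probes tested in both tissues had a difference between kidney and testis that passed in limma (0%), while 2006 had an unadjusted p under 0.05. Of the 81 kidney probes 74 were among them, 27 of these with an unadjusted p under 0.05. In testis 58 of the 74 (78.4%) had the same sign as in kidney, against 50.8% of all probes tested, and 1 was called there, where 0.572% of all probes were. Their median difference in the kidney direction was 0.24 in testis and 0.67 in kidney. The 74 were picked for their kidney difference, which raises the kidney median and the 27 counted above. No conclusion about a weaker difference in testis is drawn from them.

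Testis and kidney differences of some named genes lay close together. ND4L differed by +0.95 ± 0.22 in testis and +0.82 ± 0.22 in kidney on this table, and Acadsb by +0.64 ± 0.18 and +0.79 ± 0.18. Others lay near 0 in testis: Brd3 differed by +0.03 ± 0.10, Actb by −0.02 ± 0.10 and Rbm39 by −0.01 ± 0.15. Stat3 went in opposite directions, at −0.54 ± 0.14 in kidney and +0.23 ± 0.14 in testis, a kidney minus testis difference of −0.77 ± 0.20 (limma adjusted p = 0.252). Ndufb9 differed by +1.26 ± 0.18 in kidney and +0.47 ± 0.18 in testis, a difference of +0.79 ± 0.26 (adjusted p = 0.392). None of these gaps between the organs passed the threshold.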

How the data were processed

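Kidney RNA was read on 12 Illumina Mouse-6 bead arrays, 3 per group. Per the file headers, the authors processed the deposited kidney table in BeadStudio 1.5.0.34 with rank-invariant normalization. The signal of a probe in that deposited table is a linear intensity that can be negative. The detection score deposited beside it is a fraction from 0 to 1. Bead numbers in the deposited table described the arrays only; 23 per-sample columns were not used. Testis intensity came from the deposited value table, for which no source used here states the normalization. Slide positions are likewise unstated.

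In R 4.3.3 with limma 3.58.1, signals passed through neqc (background correction from 1 minus the score, offset 16, quantile normalization, log2). Probes with a score above 0.99 on at least 3 of 12 arrays were kept, 10903 of 46116, after 4 control entries were left out. The neqc noise SD was 175 to 218 intensity units, against 19.8 to 28.4 from scores between 0.05 and 0.95, so differences of dim probes are pulled towards 0. Zero-padded numbers in target names were looked up as gene IDs in a RefSeq table (GRCm38.p6), naming 9832 probes. Mitochondrial names in the file gave 13 more, and 36271 had none. All 12 arrays entered 1 moderated limma fit without covariates, and p-values were adjusted over all kept probes with a threshold of 0.05. Levels carry array values, and differences carry the limma SE. Of the called probes with a symbol, up to 20 higher and 15 lower were named, then up to 4 members with the smallest p of each list; further probes of called genes and genes chosen after their values were seen (Rps3, Rps9, Ccng1, Zbtb7a and Kmt2e among them) were added, and 1 list member that the rule names is not reported here. Lists used the brightest probe of a gene and had no set test. The difference between tissues was an interaction contrast in a fit of all 24 arrays, treated as independent. The fits were tested on simulated data. The comparison, members and lists were chosen with earlier results of these data known.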

Additional observations from a re-analysis of the deposited data

How the results depend on the processing

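The number of called probes, 81, fell to 15 with noise from central scores, 13 with signals floored at 16, 40 with median scaling and 14 without a filter on dim probes. It was 0 with the mismatch ratio, which itself separates the high from the low arrays, as a covariate, where the smallest limma adjusted p was 0.847. It rose to 123 with a trended, robust variance (65 of the 81 included) and to 474 with array weights (all 81 included). With the high and low arrays alone 57 passed, 30 of the 81 included. At an unadjusted limma p under 0.05 with a fold of at least 1.5 there were 161 probes, 40 of the 81 included. The identity of the called probes thus varied as well as their number. Leaving out single arrays gave 1 to 214, and leaving out low replicate 2 and high replicate 2 together, chosen after seeing the data, gave 2. Of the called, 76.5% were higher, against 86.7% with central noise, 89.3% without background correction, 84.6% floored at 16 and 87.5% with median scaling. The median of all probes stayed within 0.02 of 0. The causes were not tested.

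Replicate numbers 2 and 3 occur in both groups but name different mice. Deviations of same-numbered arrays correlated at 0.198 and 0.186, other pairs at −0.216 to 0.129, and with a replicate block 8 probes passed, 7 of them among the 81. Of 839 recomputed values of named probes, 358 passed the threshold and 480 kept their sign without passing. The only 1 that changed sign was Acadsb, which turned to −0.079 with the mismatch covariate. There Uqcrb (+0.074), Cpq (+0.16), Papola (−0.18) and Stat3 (−0.27) also shrank, while Hsd17b12 (+1.07) and Brd2 (−0.90) were larger. List medians stayed within the spread of the arrays in 681 of 721 recomputed values. The macrophage list ranged from −0.80 to +0.03, and the chromatin list from −0.32 to −0.069.

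The number of probes whose difference between tissues passed, 0, was 75 without a filter and 0 to 29 without single arrays. Only 3 mice per group, and signals near background for dim probes, limit all values.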

Other observations

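Of the 20 named genes called higher at the high dose rate, 7 lie on chromosome 15 (Ndufb9, Enpp2, Pabpc1, Dazap2, Ndufa6, Efr3a and Cpq), a chromosome that holds 161 of the tested probes with a symbol (4.67%). None (0) of the chromosome's probes was called lower in the limma fit, and at unadjusted p under 0.05 there were 25 higher and 8 lower. The median difference over all its probes was +0.03. This count was noticed in the values and was not tested.

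Of 11 measured chaperone and endoplasmic reticulum stress genes, 5 had higher and 6 lower means, none (0) passed in the limma fit, 2 had an unadjusted p under 0.05, and the median was −0.01. For this and the next list, the shares of all probes in that fit were 0.743% called and 11.9% at unadjusted p under 0.05. Both members with the chaperonin role in the mitochondrial matrix had higher means. Hspe1 lay at 7.80, 8.49 and 8.28 on the low arrays and at 8.77, 9.39 and 9.11 on the high arrays, a difference of +0.90 ± 0.26 (limma adjusted p = 0.171), and its partner Hspd1 differed by +0.44 ± 0.16. For Hspe1, high exceeded low on all arrays. Among 40 genes of the mitochondrial ribosome and of protein import none (0) passed in the limma fit and 3 had an unadjusted p under 0.05, with a median of −0.01. Mrpl20, of the large mitochondrial ribosomal subunit, differed by +0.80 ± 0.21 and Mrps18c, of the small subunit, by +0.67 ± 0.23, both without overlap. Klf2 and Klf6, immediate early zinc-finger factors, differed by −0.38 ± 0.10 and −0.42 ± 0.11, with high below low on all arrays and adjusted p-values of 0.140 for each in the limma fit.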
